A study of Mus musculus with 24 samples.

Results

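The mouse class I olfactory receptors (ORs) are encoded in a single cluster on chromosome 7, and the genes described here are the members of that cluster whose symbol runs from Olfr543 to Olfr691, with or without the suffix -ps that names a pseudogene. The rule used symbols alone, and 129 genes met it, out of 1175 ORs and 45706 genes in the deposited count table. Of these, 111 had no suffix and 18 carried it. In GENCODE M21 on GRCm38 they lie between positions 102476579 and 105342270 of chromosome 7, a span of 2866 kb, and 114 are annotated as protein coding, 8 as unprocessed, 5 as polymorphic and 2 as transcribed unprocessed pseudogenes.

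Class I ORs are the smaller class of mammalian ORs and resemble the receptors of fish, and carboxylic acids are among their known ligands. Each mature olfactory sensory neuron (OSN) transcribes a single allele of a single OR gene, so that the amount of RNA of an OR in the whole olfactory epithelium (OE) reflects both how many OSNs chose it and how much each of them makes. Neurons with class I receptors sit mostly in the dorsal zone of the OE, which is marked by the enzymes Nqo1 and Acsm4.

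The study sequenced polyadenylated RNA of the OE of WT mice and of iRhom2-/- mice, which lack a regulator of the membrane protease ADAM17, to ask which genes differ between the genotypes. There were 12 mice of each genotype, 3 at 5 weeks, 3 at 8 weeks, 3 at 10 weeks and 3 at 30 weeks. The iRhom2-/- mice carried the Rhbdf2 tm1b(KOMP) allele, in which LacZ is expressed from the Rhbdf2 promoter in every cell type that uses it, on a mixed 129Sv and C57BL/6 background. The sources used here do not say whether the WT mice were littermates, and p-values below measure the spread between mice of a group. WT mouse 3 of 8 weeks, WT mouse 3 of 10 weeks and iRhom2-/- mouse 3 of 10 weeks were female and all other mice male. The columns of the 8- and 10-week mice are tied to single mice. The remaining 6 WT and 6 iRhom2-/- columns, here called libraries 7 to 12 of each genotype, hold the 5- and 30-week mice and are tied to a genotype but to no age, so they form a single set below. The spread within a group of this set therefore includes any difference between its ages. The labels number the iRhom2-/- mice of this set from 7 to 12, the 5-week mice before the 30-week mice, and the columns may follow that order. Labels of the WT mice are numbered otherwise than their columns, so ages were not assigned from it.

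The libraries held between 25333822 and 48660394 counts. Rhbdf2, the targeted gene, was at 7.19 to 13.4 CPM (counts scaled to a library total of 1000000) in the 12 iRhom2-/- libraries and at 19.3 to 24.9 CPM in the 12 WT libraries, so its ranges did not overlap between the labels. The paper states that the targeted allele still gives transcript of its first exons. Counts of the whole gene do not show whether its function was lost in a given mouse. Markers of the OE were abundant in every library, with summed mature OSN markers between 9361 and 17673 CPM, and no listed marker of any OE cell type was at 0 in every library of a group. CPM values here used a library size scaled by the trimmed mean of M values (TMM), and 3 counts, the least taken as detection, correspond to 0.0622 to 0.112 CPM depending on the library. Intervals and floors below cover counting error only.

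Of these receptors, 5 differed between the genotypes by a test over all 3 sets of mice, and the first 30 codons of each are printed here because the values of 2 of the receptors depend on how far their sequences differ from a neighbour. The sequences run 5′ to 3′ along the coding strand, from GENCODE M21 transcripts on GRCm38, with the start codon in capitals. Olfr603 (chr7:103383911-103384000, minus strand) is set beside Olfr596 (chr7:103309723-103309812, plus strand), Olfr585 (chr7:103097743-103097832, plus strand) beside Olfr583 (chr7:103051300-103051389, plus strand), and then follow Olfr543 (chr7:102477779-102477868, minus strand), Olfr587-ps1 (chr7:103134376-103134465, plus strand) and Olfr568 (chr7:102877122-102877211, plus strand).
Olfr603: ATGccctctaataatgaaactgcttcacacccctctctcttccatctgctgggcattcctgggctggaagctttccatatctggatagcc
Olfr596: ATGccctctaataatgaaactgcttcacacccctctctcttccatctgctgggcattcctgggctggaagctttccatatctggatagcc
Olfr585: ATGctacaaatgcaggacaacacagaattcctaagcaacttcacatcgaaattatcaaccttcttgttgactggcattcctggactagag
Olfr583: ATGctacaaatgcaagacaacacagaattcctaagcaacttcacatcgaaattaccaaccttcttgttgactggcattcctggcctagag
Olfr543: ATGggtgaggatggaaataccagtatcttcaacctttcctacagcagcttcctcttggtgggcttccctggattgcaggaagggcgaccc
Olfr587-ps1: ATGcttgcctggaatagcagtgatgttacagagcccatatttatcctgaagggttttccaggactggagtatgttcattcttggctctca
Olfr568: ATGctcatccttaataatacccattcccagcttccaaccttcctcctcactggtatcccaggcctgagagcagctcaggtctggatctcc

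The printed bases of Olfr603 and Olfr596 were identical, and the coding sequences of the pair matched at 99.5% of 936 aligned bases. Untranslated parts of the exons were not compared. Olfr585 and Olfr583 differed at 3 of the 90 printed bases and matched at 96.1% of 957. The closest receptors of the other 3 were distant, with 68.8% identity between Olfr543 and Olfr545, 68.9% between Olfr568 and Olfr560, and 66.5% between Olfr587-ps1 and Olfr577. Near-identical copies were common in the cluster, where 34 of the 129 genes had another receptor at 95% identity or more over at least 500 bases, and for these the split of reads between copies is uncertain.

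The receptors differed widely in level. Per kb of annotated exon, the highest was Olfr672, with a mean of 4.29 CPM per kb over the 24 libraries (range 2.12 to 8.37), followed by Olfr690 at 2.27 (0.943 to 4.33), Olfr598 at 2.23 (0.774 to 4.35), Olfr570 at 2.11 (0.620 to 4.95), Olfr549 at 1.84 (0.556 to 4.49) and Olfr610 at 1.66 (0.464 to 4.26). The ranges of all 6 overlapped, and together they held 19.4% of the CPM of the class I receptors. The median level of the 102 receptors that entered the test over 3 sets was 0.295 CPM per kb. Of all 129, 7 had no count in any library, 10 never exceeded 3 counts, 72 exceeded 3 counts in all 24 libraries and 47 did so in 1 to 23 of them. Among the genes with the suffix -ps, 11 of 18 had a count, and the highest were Olfr587-ps1 at 0.277 CPM per kb (0 to 1.67) and Olfr602-ps1 at 0.0875 (0 to 0.237).

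**Figure D1:**
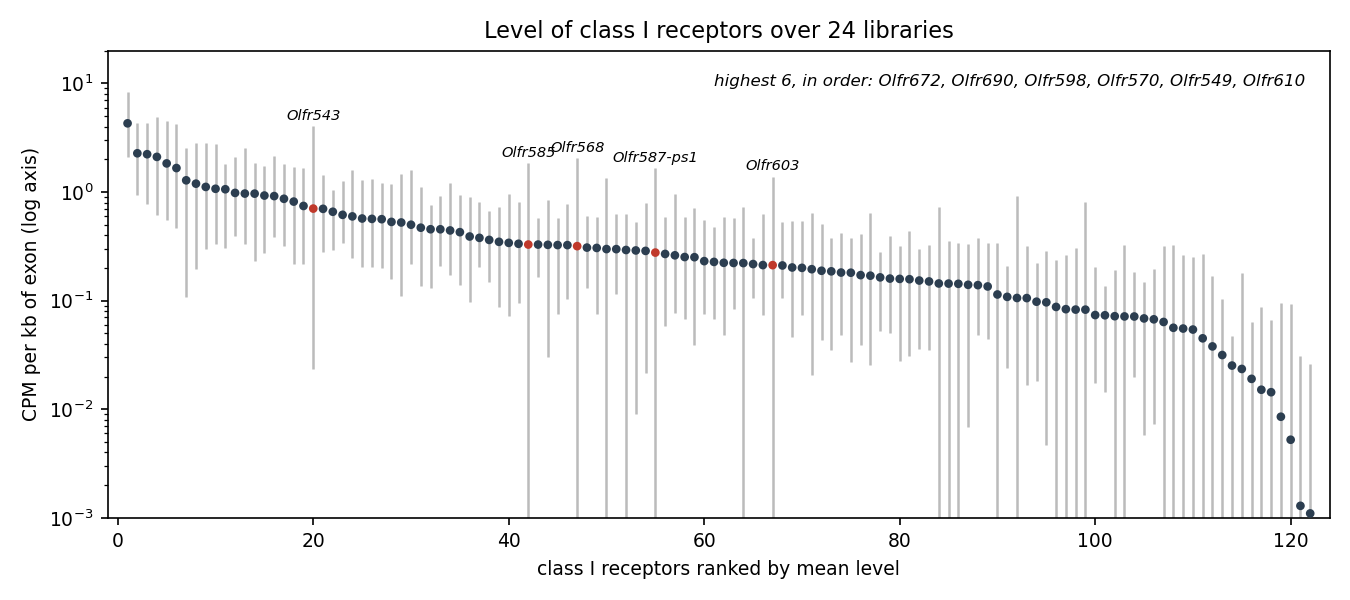
Mean level of the 122 class I receptors with a count, in CPM per kb of exon on a log axis, ranked from the highest (rank 1) to the lowest. Grey bars run from the lowest to the highest of 24 libraries (a lowest value of 0 is drawn to the foot of the axis) and the 5 receptors that differed between genotypes over 3 sets are red, with means from 0.212 (Olfr603) to 0.704 CPM per kb (Olfr543) and 4 of them at 0 in at least 1 library.

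Over the 3 sets, the mean of the within-set differences between iRhom2-/- and WT mice was tested for 102 of the 129 receptors, the rest having too few counts for the filter. A receptor with counts in only a few libraries of one genotype can pass that filter, so the counts below describe those tested and not all 129. With edgeR (quasi-likelihood test, Benjamini-Hochberg over all genes tested, adjusted p under 0.1) 5 receptors were called higher in iRhom2-/- mice and 0 were called lower, where 1.44% of all genes tested were called higher and 1.02% lower. Among the called receptors, Olfr603, Olfr585, Olfr587-ps1 and Olfr568 had at most 3, 5, 7 and 10 counts in any WT library. They passed the filter through iRhom2-/- libraries, so a call in the lower direction was hardly open to them. The 5 against 0 therefore does not show a direction of the class. At an unadjusted p under 0.05, 11 were higher and 0 lower, against 6.71% and 6.09% of all genes. The 11 include the called receptors, so this count does not show a direction of the class either. Of the 850 other ORs, 83 were higher and 40 lower at that unadjusted p. The median log2 fold change was 0.07 over the receptors tested, 0.00 over the 850 other ORs and 0.00 over all genes, and 62 receptors lay above 0 and 40 below. When libraries were scaled by their total OR counts instead, 47 lay above 0 and 55 below, the median became -0.03 and the number called higher was again 5, while the median of all genes moved to -0.11. Leaving out 1 library at a time gave 3 to 5 called, the lower number where the library left out was WT mouse 1 or 2 or iRhom2-/- mouse 3 of the 10-week set, or WT mouse 1 or 3 or iRhom2-/- mouse 2 of the 8-week set, and Olfr603, Olfr585 and Olfr543 were called in all 24 such fits, whereas Olfr587-ps1 was lost in 6 of the 24 and Olfr568 in 15. The share of all genes called was not taken for the fits without 1 library or with the OR total. In bulk tissue, fewer cells of a type and less RNA per cell cannot be told apart.

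Olfr603 had the smallest p. At 8 weeks it was at 0.0435, 0 and 0 CPM in the WT mice and at 0.684, 1.41 and 0.410 CPM in the iRhom2-/- mice. At 10 weeks it had no count in any WT mouse, and the iRhom2-/- mice were at 0.120, 0.0741 and 0.434 CPM. Every iRhom2-/- mouse of both ages lay above every WT mouse of its age, though 4 and 2 counts underlie the first 2 values at 10 weeks. Among the 5- and 30-week mice, 5 WT libraries were at 0 and the sixth at 0.0811 CPM, whereas iRhom2-/- libraries 7 to 12 were at 0.0749, 0.0672, 0, 0.948, 0.311 and 0.543 CPM. Libraries 10, 11 and 12 were high and libraries 7, 8 and 9 were within the WT range. Pooled counts gave a ratio of 55.3 at 8 weeks (95% counting interval 14.97 to 462, from 2 WT counts), at least 6.91-fold at 10 weeks against a floor of 3 counts over the WT group, and 20.8 (6.80 to 104, from 3 WT counts) at 5 and 30 weeks. The fitted log2 difference over 3 sets was 5.16 (SE 0.87, adjusted p = 0.00352). Its near-identical neighbour Olfr596 was at 0.653, 1.60 and 2.02 CPM in the WT and 1.16, 3.20 and 2.28 CPM in the iRhom2-/- mice of 8 weeks and had at least 14 counts in every library. How the reads were split within this pair is uncertain.

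Olfr585 had no count in the 3 WT mice of 8 weeks and 0.663, 1.43 and 0.910 CPM in the iRhom2-/- mice. At 10 weeks the WT mice were at 0.0642, 0 and 0.149 CPM and the iRhom2-/- mice at 0.0598, 0.0741 and 0.898 CPM, so that mouse 3 alone stood above the WT range. The WT libraries 7 to 12 ran from 0 to 0.127 CPM with a median under the floor, and the iRhom2-/- libraries were at 0, 0, 0.0679, 1.90, 0.829 and 0.789 CPM. Libraries 10 to 12 were again the high ones. The pooled difference was at least 43.7-fold at 8 weeks, 4.89-fold at 10 weeks (2.13 to 13.1) and 12.5-fold at 5 and 30 weeks (6.37 to 28.1), and the fitted log2 difference over 3 sets was 4.62 (SE 0.95, adjusted p = 0.0162). Its closest neighbour, Olfr583, never exceeded 12 counts. The more abundant Olfr566, with 9 to 212 counts in a library, matched Olfr583 at 94.7% of 957 aligned bases. How reads were split among these receptors is uncertain.

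Olfr543, the first gene of the cluster and the most abundant of the 5, was at 0.174, 0.365 and 0.219 CPM in the WT mice of 8 weeks and at 1.80, 3.77 and 2.73 CPM in the iRhom2-/- mice. At 10 weeks the WT mice were at 0.449, 0.222 and 0.179 CPM and the iRhom2-/- mice at 0.269, 0.408 and 2.29 CPM. The groups did not overlap at 8 weeks, and at 10 weeks they overlapped except for iRhom2-/- mouse 3. WT libraries 7 to 12 lay between 0.127 and 0.374 CPM, and the iRhom2-/- libraries were at 0.187, 0.101, 0.0339, 5.90, 1.69 and 2.57 CPM. Libraries 10 to 12 lay above every WT library, and libraries 8 and 9 below every WT library of that set. The pooled ratio was 11.0 (7.67 to 16.2) at 8 weeks, 3.61 (2.33 to 5.76) at 10 weeks and 8.75 (6.24 to 12.6) at 5 and 30 weeks, and the log2 difference over 3 sets was 2.77 (SE 0.61, adjusted p = 0.0232).

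Olfr587-ps1, annotated as a polymorphic pseudogene (a gene intact in some strains and disrupted in others), followed the same libraries. At 8 weeks it was at 0.0435, 0.160 and 0.0244 CPM in WT and at 0.373, 1.58 and 1.12 CPM in iRhom2-/- mice, and at 10 weeks at 0.0321, 0 and 0.0897 against 0.0299, 0.0371 and 0.403 CPM. WT libraries 7 to 12 reached 0.102 CPM at most, and the iRhom2-/- libraries were at 0.0749, 0, 0, 1.23, 0.276 and 0.567 CPM. The high libraries were all 3 iRhom2-/- mice of 8 weeks, mouse 3 of 10 weeks and libraries 10 to 12, and its log2 difference over 3 sets was 2.83 (SE 0.73, adjusted p = 0.0584). With 1 library left out its adjusted p in the edgeR quasi-likelihood test ran up to 0.381.

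Olfr568 was at 0, 0.228 and 0.0731 CPM in the WT mice of 8 weeks and at 0.352, 1.73 and 0.524 CPM in the iRhom2-/- mice. At 10 weeks it was at 0, 0 and 0.0897 CPM in WT and at 0.120, 0.0371 and 0.403 CPM in iRhom2-/- mice. WT libraries 7 to 12 lay between 0 and 0.104 CPM and the iRhom2-/- libraries at 0, 0.0336, 0, 1.93, 0.518 and 0.888 CPM. Its high libraries were those of Olfr587-ps1. The log2 difference over 3 sets was 3.06 (SE 0.85, adjusted p = 0.0832). Of the 5 calls it was lost most often with 1 library left out (15 of 24 fits), where the edgeR adjusted p ran up to 0.232.

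**Figure D2:**
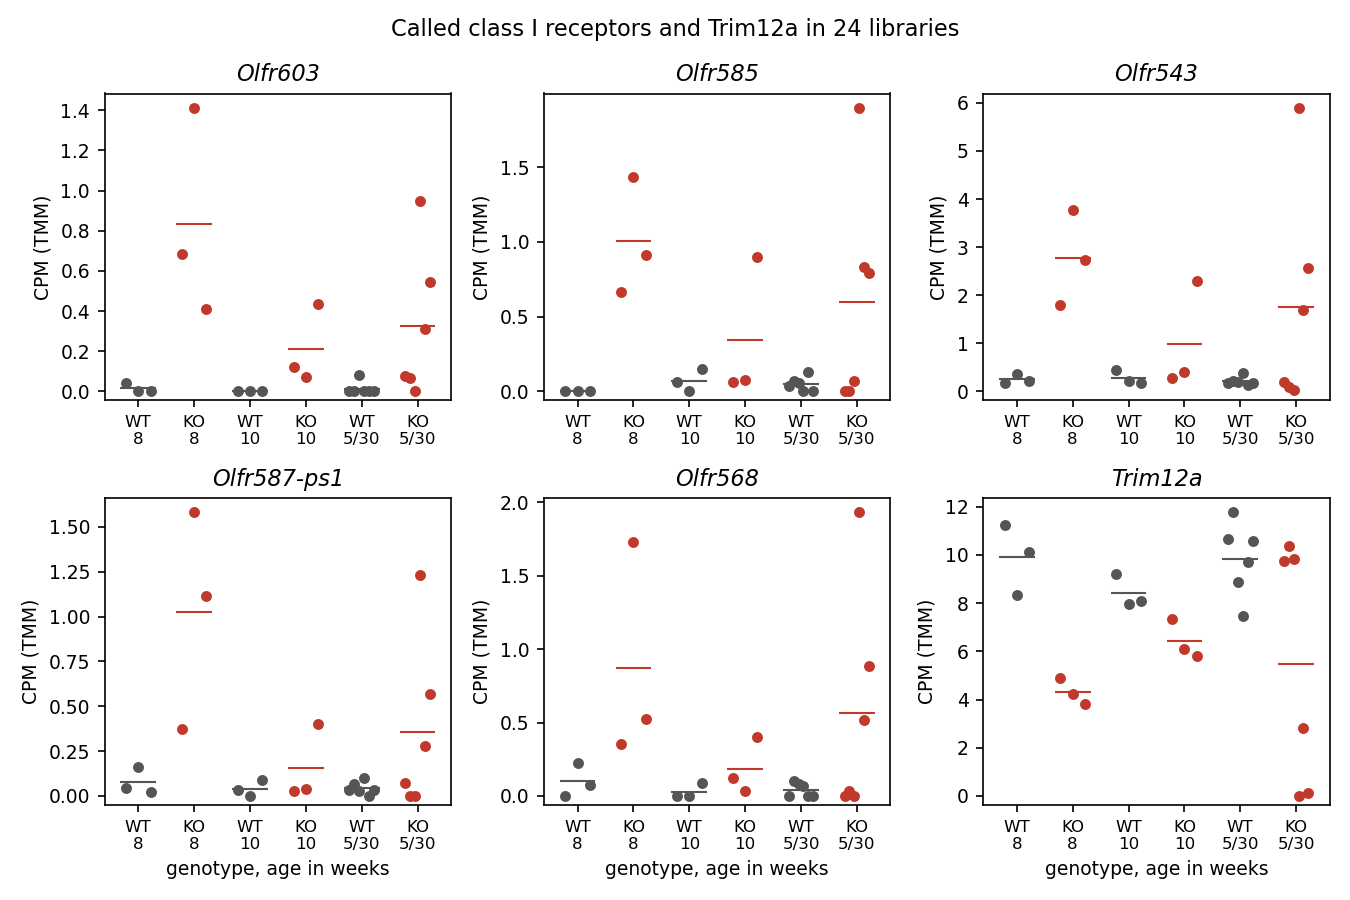
CPM of the 5 called receptors and of Trim12a, a gene of the cluster that is not a receptor, in each of the 24 libraries by genotype (KO stands for iRhom2-/-) and age in weeks, with group means as lines. For each receptor the 3 iRhom2-/- mice of 8 weeks lie above all 12 WT libraries, as do 3 of the 6 iRhom2-/- libraries of the 5- and 30-week set, and Olfr543 reaches 5.90 CPM in library 10, where Trim12a is at 0.

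Counted over all 24 libraries, Olfr603 stood above all 12 WT libraries in 8 of 12 iRhom2-/- libraries, and Olfr585, Olfr543, Olfr587-ps1 and Olfr568 did so in 7 of 12. Of the 102 receptors tested, 26 had 0 such iRhom2-/- libraries, 25 had 1, 21 had 2, 16 had 3 and 3 had 4, while 5 had 5 and 1 had 6. The 5 called receptors therefore formed the upper end of that distribution, which their choice by the same contrast fixes. All 5 started within the first 907 kb of the cluster, at 0 kb (Olfr543), 400.5 kb (Olfr568), 621.1 kb (Olfr585), 657.8 kb (Olfr587-ps1) and 906.5 kb (Olfr603) from its first gene. The 35 other receptors tested between Olfr543 and Olfr603 had log2 differences over 3 sets from -0.91 to 0.76, with a median of 0.07, 22 above 0 and 13 below. Among them, Olfr570, 418.0 kb from the first gene, was at -0.12 and Olfr598, at 847.0 kb, at 0.01. Some receptors with too few counts for the test were high in part or all of the libraries where the 5 were high, which was noticed after their values were seen. Olfr564, 326.9 kb from the first gene, had at most 1 count in any WT library and 5, 18 and 11 counts in the iRhom2-/- mice of 8 weeks and 22, 4 and 6 in libraries 10 to 12, and stood above all 12 WT libraries in 7 iRhom2-/- libraries. Olfr547, at 58.17 kb, did so in 6, and Olfr631, further along at 1452 kb, in 5.

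The cluster also holds 50 annotated genes that are not receptors, among them the beta-globin genes and genes of the Trim family, whose proteins take part in antiviral defence. Of the 19 tested over 3 sets, 1 was called higher (Trim34b, log2 difference 1.93, adjusted p = 0.0470, edgeR quasi-likelihood test) and 0 lower, and at 8 weeks 2 were called lower (Trim12a, -1.22, adjusted p = 0.0330, and Trim30d, -1.92, adjusted p = 0.0818). Among all genes, 1.44% were called higher and 1.02% lower over 3 sets, and 3.24% and 1.74% at 8 weeks. Trim12a was at 11.3, 8.32 and 10.1 CPM in the WT mice and 4.91, 4.22 and 3.80 CPM in the iRhom2-/- mice of 8 weeks. In the 5- and 30-week set iRhom2-/- libraries 7 to 9, which were low for the 5 receptors, held 9.73, 10.3 and 9.84 CPM of Trim12a, and libraries 10 to 12, which were high for them, held 0, 2.83 and 0.123 CPM. At 10 weeks the iRhom2-/- mice were at 7.33, 6.11 and 5.82 CPM. The strain origin of the cluster in each mouse is not given in the sources used here, and its part in the values of the receptors or of Trim12a was not tested.

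None of the receptors was called lower over 3 sets. The 5 with the smallest p in that direction were Olfr548-ps1 (log2 difference -0.91, SE 0.44), Olfr592 (-0.81, SE 0.39), Olfr655 (-0.51, SE 0.29), Olfr670 (-0.52, SE 0.31) and Olfr652 (-0.36, SE 0.28), with edgeR adjusted p between 0.395 and 0.658. Olfr548-ps1, which despite its suffix is annotated as protein coding, was at 0.479, 0.638 and 0.390 CPM in the WT and 0.124, 0.422 and 0.364 CPM in the iRhom2-/- mice of 8 weeks, and those groups overlapped. It was at 0.0351, 0.0691 and 0.0247 CPM in iRhom2-/- libraries 10 to 12, below every WT library.

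At 8 weeks nearly the whole class leaned towards higher values in iRhom2-/- mice. Of 101 receptors tested, 90 had a log2 fold change above 0 and 11 below, and the median was 0.61, against 0.30 over 811 other ORs and 0.00 over all genes. Called higher were 4 (Olfr543, Olfr585, Olfr603 and Olfr587-ps1) and called lower 0, where 3.24% and 1.74% of all genes were called, and 15 were higher and 0 lower at an unadjusted p under 0.05, against 10.8% and 9.02%. Olfr585, Olfr603 and Olfr587-ps1 had at most 0, 2 and 7 counts in any WT mouse of this age and passed the filter through the iRhom2-/- mice. They are among both the 4 and the 15, so neither count shows a direction of the class. Of the 811 other ORs, 86 were higher and 18 lower at an unadjusted p under 0.05. The 3 iRhom2-/- mice lay above the 3 WT mice for 10 receptors and below them for 0, against 16.1% and 10.6% of all genes, so the share without overlap was under that of all genes in both directions. Scaled by the OR total, 79 receptors lay above 0 and 22 below with a median of 0.34, that of the other ORs was -0.01 and that of all genes moved to -0.33. The median of the class exceeded that of the other ORs by 0.31 on the log2 scale with TMM and by 0.35 with the OR total. The number called rested on single mice, since it was 0 without iRhom2-/- mouse 2 or without iRhom2-/- mouse 3, 2 without WT mouse 2 or without WT mouse 3 and 7 without iRhom2-/- mouse 1, and DESeq2 called 9. The share of all genes called was not taken for these fits or for DESeq2.

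The 8-week difference was uneven among mice. Olfr544, which responds to azelaic acid, was at 1.68, 3.85 and 3.85 CPM in the WT mice and at 3.13, 8.33 and 6.62 CPM in the iRhom2-/- mice (log2 difference 0.93, adjusted p = 0.283). Olfr549 was at 1.44, 3.26 and 2.29 against 3.11, 7.25 and 6.58 CPM (1.26, adjusted p = 0.151) and Olfr598 at 1.57, 3.92 and 3.31 against 2.90, 8.81 and 6.81 CPM (1.06, adjusted p = 0.263). In each case WT mouse 1 was the lowest of its group, iRhom2-/- mouse 1 the lowest of its own and within the WT range, and iRhom2-/- mouse 2 the highest. The 3 receptors with the smallest p in the lower direction were Olfr548-ps1 (-0.75), Olfr592 (-0.78) and Olfr611 (-0.72), and for Olfr611 WT mouse 3 was at 1.95 CPM and the other 2 WT mice at 0.283 and 0.844 CPM, against 0.228, 0.696 and 0.956 CPM in iRhom2-/- mice.

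At 10 weeks the lean was in the other direction. Of 92 receptors tested, 11 lay above 0 and 81 below, with a median log2 fold change of -0.49, against -0.33 over 746 other ORs and 0.01 over all genes. The edgeR quasi-likelihood test called 0 of them, where 0.197% of all genes were called, and DESeq2, for which the share of all genes was not taken, called 2. At an unadjusted p under 0.05, 1 was higher and 17 lower, against 3.97% and 3.82% of all genes, and the 3 iRhom2-/- mice lay above the 3 WT mice for 1 receptor and below them for 27, against 6.76% and 6.44%. Of the 746 other ORs, 47 were higher and 94 lower at that unadjusted p. For these other ORs the iRhom2-/- mice lay above the WT mice for 49 and below them for 143. Scaled by the OR total, 12 lay above 0 and 80 below, with a median of -0.42 and 0.10 over all genes. Among the 5 receptors called over 3 sets only Olfr543 had enough counts to be tested at this age (log2 difference 1.80, SE 0.85, adjusted p = 0.692).

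Olfr661 had the smallest p of this set. It was at 1.67, 1.71 and 2.21 CPM in WT and at 0.718, 0.667 and 0.434 CPM in iRhom2-/- mice, without overlap (log2 difference -1.62, SE 0.33, adjusted p = 0.260 by edgeR). Olfr598, among the most abundant, was at 6.61, 5.23 and 8.25 against 4.31, 3.82 and 3.56 CPM (-0.78, SE 0.21, adjusted p = 0.436), and Olfr570 at 4.91, 4.09 and 4.60 against 2.69, 2.96 and 2.01 CPM (-0.82, SE 0.23, adjusted p = 0.437). The 3 WT mice lay above the 3 iRhom2-/- mice in each case. In the other direction, Olfr641 was at 0.161, 0.127 and 0.149 CPM in WT and 0.478, 0.482 and 0.341 CPM in iRhom2-/- mice, again without overlap (1.55, SE 0.46, adjusted p = 0.472). Olfr607 (1.70, SE 1.23) had no count in WT mice 1 and 3 and 0.602 CPM in WT mouse 2, against 0.598, 1.15 and 0.248 CPM in iRhom2-/- mice, and it was without counts in several libraries of both genotypes at other ages too.

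In the 5- and 30-week set 84 receptors were tested, 60 above 0 and 24 below, with a median of 0.10, against 0.10 over 720 other ORs and 0.00 over all genes. Scaled by the OR total, 43 lay above 0 and 41 below. The edgeR quasi-likelihood test and DESeq2 each called 0, where 1.07% of all genes were called by edgeR. At an unadjusted p under 0.05, 1 was higher and 2 lower, against 7.35% and 6.8% of all genes, and the 6 iRhom2-/- libraries did not lie wholly above the 6 WT libraries, or below them, for any receptor, against 0.996% and 0.666% of all genes. None of the 5 receptors called over 3 sets passed the filter here. Any difference between 5 and 30 weeks is part of the spread in these tests, so 0 calls do not show that the genotypes were alike. The smallest p upwards were those of Olfr685 (0.61, SE 0.23), Olfr659 (0.83, SE 0.39) and Olfr559 (1.27, SE 0.62) and downwards those of Olfr655 (-0.79, SE 0.32), Olfr566 (-1.08, SE 0.46) and Olfr554 (-0.62, SE 0.31), with adjusted p from 0.262 to 0.388. Olfr566 showed how uneven this set was, since WT libraries ran from 1.25 to 3.42 CPM and iRhom2-/- libraries 10 and 12 were at 0.386 and 0.222 CPM while libraries 8 and 11 were at 1.95 and 2.07 CPM.

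**Figure D3:**
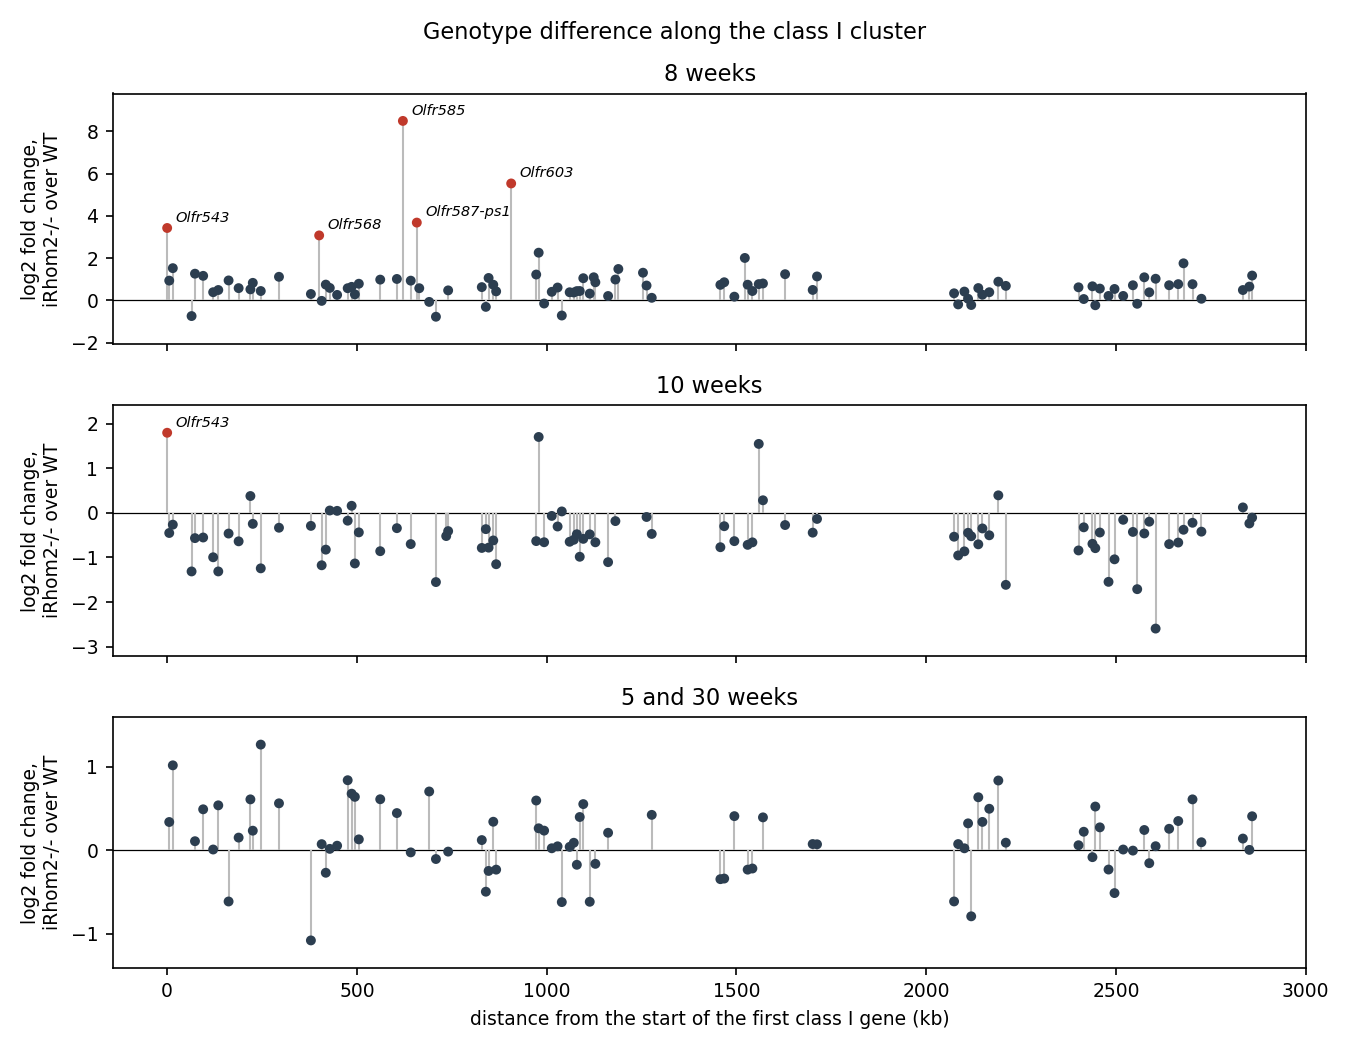
Fitted log2 fold change of iRhom2-/- over WT mice (vertical axes, each panel with its own scale) against distance from the start of the first class I gene in kb, for the receptors tested at 8 weeks (101), 10 weeks (92) and 5 and 30 weeks (84). The 5 receptors called over 3 sets are red where tested, and the other receptors lie mostly above 0 at 8 weeks and mostly below 0 at 10 weeks along the whole cluster.

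Along the cluster, the lean at 8 and 10 weeks was spread over its length. In windows of 500 kb the median log2 fold change at 8 weeks was between 0.38 (17 receptors) and 0.78 (19 receptors), with 8 of 8 receptors above 0 in the fourth window and 15 of 19 in the second. At 10 weeks the medians were between -0.69 and -0.27, and no window had a median above 0. The 14 receptors at the far end of the cluster numbered 13 above 0 at 8 weeks and 13 below 0 at 10 weeks.

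Most receptors had differences of opposite sign at 8 and 10 weeks. Of the 91 receptors tested at both ages, 71 lay above 0 at 8 weeks and below 0 at 10 weeks, 10 above 0 at both, 9 below 0 at both and 1 below and then above. The change of sign was common in the 738 other ORs too, where 393 lay above 0 and then below and 61 below and then above. Another 140 of these lay above 0 at both ages and 144 below. Across the 91 class I receptors, which are not independent replicates and share the libraries of each age, Pearson's r of the log2 differences was 0.47 and Spearman's rho 0.27, while over the 738 other ORs r was 0.11 and rho 0.01. When the difference itself was tested for a change among the 3 sets, edgeR's quasi-likelihood test called 0 of 102 receptors, where 0.0482% of all genes were called, a likelihood ratio test called 1, and 8 had an unadjusted p under 0.05, against 12.7% of all genes. The smallest p were those of Olfr598 (-1.85 from 8 to 10 weeks, adjusted p = 0.244), Olfr661 (-2.31, adjusted p = 0.285) and Olfr554 (-1.42, adjusted p = 0.285).

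**Figure D4:**
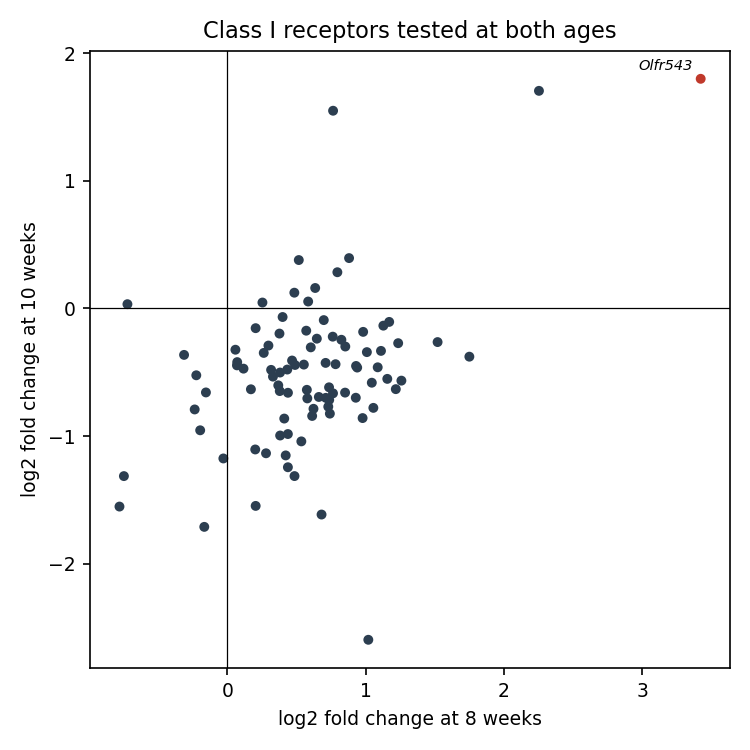
Fitted log2 fold change of iRhom2-/- over WT mice at 8 weeks (horizontal) and at 10 weeks (vertical) for the 91 class I receptors tested at both ages. Most points (71) lie to the lower right, above 0 at 8 weeks and below 0 at 10 weeks, and Olfr543 (red) lies at 3.42 and 1.80.

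As a share of all OR counts, the class I receptors took 4.82%, 8.32% and 8.35% in the WT mice of 8 weeks (7.16 ± 2.03, SD, n = 3) and 4.92%, 13.4% and 9.14% in the iRhom2-/- mice (9.16 ± 4.24). At 10 weeks they took 8.88%, 7.67% and 10.8% in WT (9.13 ± 1.60) and 7.45%, 7.36% and 6.16% in iRhom2-/- mice (6.99 ± 0.72). In the 5- and 30-week set the WT libraries ran from 5.57% to 8.48% (6.75 ± 1.15, n = 6) and the iRhom2-/- libraries from 3.95% to 12.5% (6.98 ± 3.09). Only at 10 weeks did the groups not overlap, and there every iRhom2-/- mouse lay below every WT mouse. The differences were 2.00, -2.14 and 0.22 percentage points. The first became -0.13 without iRhom2-/- mouse 2, and the last -0.88, -0.08 and -0.01 without iRhom2-/- library 10, iRhom2-/- library 11 and WT library 7. Exact binomial (Clopper-Pearson) 95% intervals of the single shares were only 0.279 to 0.604 points wide, far narrower than the spread between mice.

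The share followed the dorsal zone enzyme Nqo1 across libraries, with r = 0.92 and rho = 0.91 over 24 libraries, 0.91 and 0.89 without the 2 libraries farthest from the median of Nqo1, and r = 0.98, 0.92 and 0.95 within the 8-week, 10-week and 5- and 30-week sets. For Acsm4, the other dorsal enzyme, r was 0.80 and rho 0.85. For the ventral zone adhesion molecule Ncam2 r was -0.11 and rho -0.17, and for the mature OSN marker Omp 0.32 and 0.36. No correlation was computed for the other listed zone markers, Robo2 (dorsal) and Nrp2, Nfia, Nfib and Nfix (ventral). These are descriptions of libraries that share tissue pieces, depth and scaling, and what part the dorsal share of the dissected tissue had in the genotype differences was not tested. Nqo1 itself had a log2 difference of 0.51 (SE 0.34) at 8 weeks and -0.68 (SE 0.16) at 10 weeks, with adjusted p of 0.437 and 0.354.

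**Figure D5:**
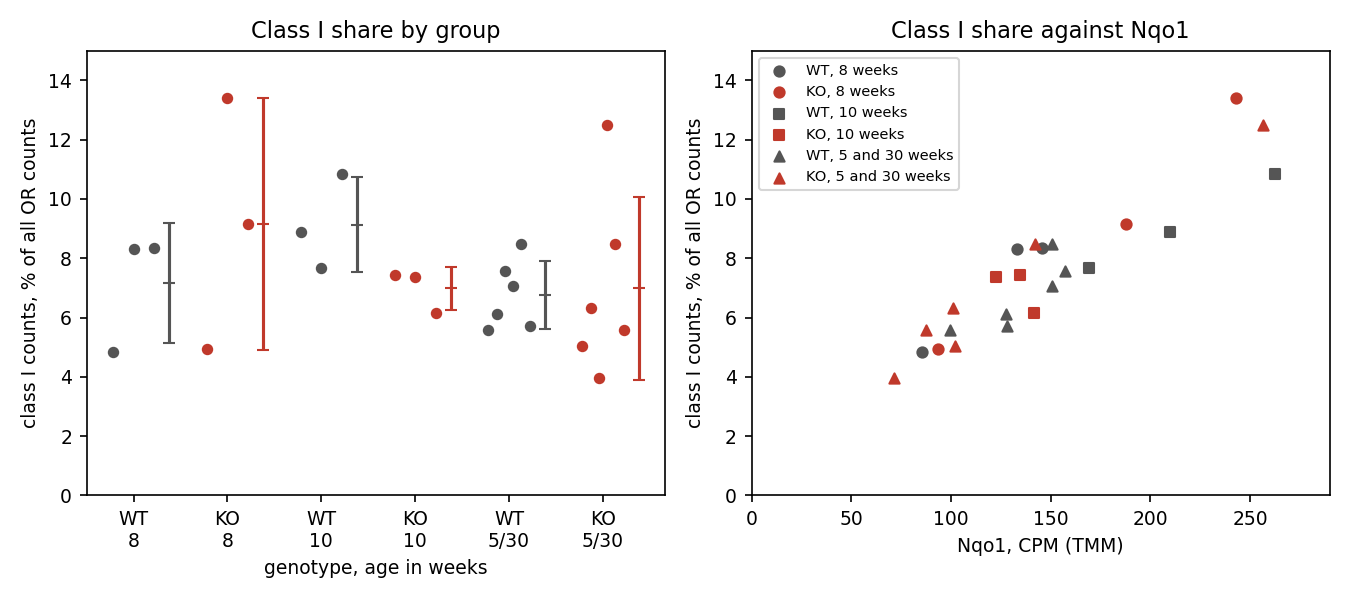
Left, class I counts as a percentage of all OR counts in each library by genotype (KO stands for iRhom2-/-) and age, with the mean ± SD of each group beside its points. Right, the same percentage against the CPM of Nqo1 in the same 24 libraries, where the share rises with Nqo1 in all 3 sets (r = 0.92 over all libraries) from 3.95% to 13.4%.

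The 7 other class I receptors of the same cluster that were counted (Olfr33, Olfr64, Olfr66 to Olfr69 and Olfr78) had a median log2 difference of 0.71 at 8 weeks, with 6 of 7 above 0, and of -0.42 at 10 weeks, with 4 of 5 below, and 0 were called in either. Olfr78, a receptor for short-chain fatty acids, was at 1.57, 4.56 and 2.92 CPM in WT and 2.11, 4.83 and 4.83 CPM in iRhom2-/- mice of 8 weeks, and those groups overlapped. The 3 dorsal markers (Nqo1, Acsm4 and Robo2) had a median of 0.28 at 8 weeks, with 3 above 0. At 10 weeks it was -0.29, with Nqo1 and Acsm4 below 0 and Robo2 above. The 5 ventral markers (Ncam2, Nrp2, Nfia, Nfib and Nfix) had medians of -0.01, with 2 above 0 and 3 below, and 0.16, with 4 above and 1 below. Between genotypes 0 were called in each list. Of 15 genes of OR choice and expression, 1 was called, Lhx2, a transcription factor that binds OR enhancers, at 8 weeks only (log2 difference 0.32, adjusted p = 0.0723), where 3.24% of all genes were called higher.

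Genes of odour signal transduction and markers of OE cell types moved beside the receptors as follows. At 8 weeks 5 of 12 transduction genes were called higher, namely the cyclic nucleotide channel subunits Cnga2 (0.53) and Cnga4 (0.60), the chloride channel Ano2 (0.56), the G-protein chaperone Ric8b (0.66) and the phosphodiesterase Pde1c (0.43), with adjusted p from 0.0421 to 0.0938, and at 10 weeks 11 of 12 lay below 0 with 0 called. Of all genes tested, 3.24% were called higher at 8 weeks. Summed mature OSN markers were at 9361 to 11781 CPM in WT and 13798 to 17569 CPM in iRhom2-/- mice at 8 weeks, without overlap, and at 13896 to 17673 CPM and 12534 to 16097 CPM at 10 weeks, with overlap. Among single genes, 16.1% were higher without overlap at 8 weeks. Of 6 immature OSN markers 1 was called, Crmp1, at 8 weeks (0.35, adjusted p = 0.0765). The summed erythrocyte markers of 10 weeks were at 1232, 1552 and 636 CPM in WT and 739, 6150 and 517 CPM in iRhom2-/- mice. Mouse 2 alone was high, and the mean of each of the 5 genes was higher in iRhom2-/- mice with it and lower without it. Of the 92 receptors tested at that age, 81 had a lower mean CPM in iRhom2-/- mice with mouse 2 and 83 without it, and the difference in class I share was -2.14 and -2.33 points. The summed macrophage markers were at 82.0 to 162 CPM and 53.3 to 99.96 CPM in WT and iRhom2-/- mice of 8 weeks, with 4 of 4 below 0. At 10 weeks these sums were at 100 to 116 CPM in WT and 104 to 135 CPM in iRhom2-/- mice, with 4 of 4 above 0. In the 5- and 30-week set 4 of 4 lay below 0. No gene of these last 2 lists, nor of the lists for globose basal, horizontal basal, sustentacular, Bowman gland, respiratory ciliated and microvillar cells, was called between genotypes. The part of OSN content or of other cell types in the class I differences was not tested.

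Between 8 and 10 weeks, over both genotypes, 101 receptors were tested, and 2 were called higher and 12 lower at 10 weeks, against 27.9% and 25.2% of all genes, with medians of -0.18 over the class, -0.05 over other ORs and 0.00 over all genes. The labels give the sets different sequencing core references, so age and sequencing run cannot be told apart. Without WT mouse 2 of 8 weeks 6 were called, 9 without WT mouse 1 of the older set or iRhom2-/- mouse 3 of the younger, and 22 when iRhom2-/- mouse 1 of the younger set was left out. The share of all genes called was not taken for the fits without 1 mouse. Called higher were Olfr640 (log2 difference 0.84, adjusted p = 0.0490) and Olfr672 (0.63, adjusted p = 0.0495), the latter at 3.16, 7.37 and 6.60 CPM in the WT mice of 8 weeks and 9.38, 8.15 and 12.5 CPM in those of 10 weeks. Olfr683 (0.71, adjusted p = 0.104) fell just outside. The lowest p downwards were those of Olfr616 (-1.37, adjusted p = 0.0183), Olfr619 (-0.99, adjusted p = 0.0337) and Olfr558 (-0.62, adjusted p = 0.0444), a receptor for short-chain fatty acids. Olfr616 was at 0.414, 1.50 and 1.51 CPM in the WT mice of 8 weeks and at 0.642, 0.571 and 0.957 CPM in those of 10 weeks, and its annotation overlaps that of Olfr615 on the other strand, so the origin of its reads is uncertain. The remaining 9 called lower were Olfr575 (-1.18), Olfr639 (-1.05), Olfr689 (-0.82), Olfr569 (-0.80), Olfr588-ps1 (-1.26), Olfr587-ps1 (-1.74), Olfr592 (-1.26) and, outside the naming rule, Olfr686 (-0.76) and Olfr577 (-0.95). Olfr640 and Olfr639 overlap the annotated span of Olfr643, which was not analysed here, and Olfr577 overlaps Olfr576.

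Among receptors fixed by name, Olfr545 had log2 differences between genotypes of 1.52 at 8 weeks, -0.26 at 10 weeks and 1.02 at 5 and 30 weeks. It was at 0.435, 0.638 and 0.925 CPM in the WT and 0.892, 2.49 and 2.44 CPM in the iRhom2-/- mice of 8 weeks, and iRhom2-/- mouse 1 lay just under the highest WT mouse. Since its coding sequence is 96.4% identical to that of Olfr544, reads of the pair may have been shared. Olfr690 had differences of 0.65, -0.24 and 0.00 and its neighbour Olfr691 of 1.17, -0.11 and 0.41. Olfr691 was at 0.501, 1.25 and 1.80 CPM in WT and 1.76, 3.60 and 2.71 CPM in iRhom2-/- mice of 8 weeks. For Olfr655 the differences were -0.22, -0.52 and -0.79, with WT libraries 7 to 12 from 0.881 to 2.06 CPM and iRhom2-/- libraries from 0.444 to 1.41 CPM. None of these 4 was called in any genotype comparison.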

How the data were processed

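RNA of the dissected OE was sequenced from 24 mice. Per the labels and the methods of the study, libraries were made with a directional kit after poly(A) selection, reads were aligned to GRCm38 with STAR in an nf-core pipeline, and the authors quantified genes with RSEM. They deposited a table of estimated counts per gene, whose values here were whole numbers and were not normalized. Whether counting used strand is not given in the sources used here. The table also holds columns of the authors' own edgeR comparison (fold change, mean level, test statistic, p-value and FDR), which were not used.

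Genes were tested in R 4.3.3 with edgeR 4.0.16 (quasi-likelihood F-test, TMM factors, filterByExpr with the groups of the fit) on group means, with Benjamini-Hochberg adjustment over all genes tested and a call at an adjusted p under 0.1. The difference over 3 sets was the mean of the within-set differences of 6 groups. DESeq2 1.42.0 was an alternative. Symbols were matched to GENCODE M21 by gene ID for 129 of 129 receptors, and lengths are the union of annotated exons. Nearest receptors were found with blastn by aligning coding sequences, or whole transcripts where no coding sequence was annotated. Rows without a symbol held 0.782% to 1.63% of counts. The analysis was tested on simulated counts.

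The receptors and all gene lists were chosen with earlier results of these data known. Receptors are named where they had the smallest p in a comparison (5 in each direction over 3 sets, 3 in each direction in a single set or between ages, 3 for a change among sets), the highest CPM per kb (6, and 2 with the suffix -ps), a call (up to 15), or a place among 7 fixed by name. Receptors below the filter were not tested. No replicate pair had counts within sampling noise of each other, so each library counted as 1 sample. Same-numbered mice of the 2 genotypes did not all deviate together, so no block was used. Plots were drawn with matplotlib 3.10.9 in Python 3.11.15, and exact intervals computed with scipy 1.17.1.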

Additional observations from a re-analysis of the deposited data

Results flagged for a closer look

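Within the groups of 6 libraries of the 5- and 30-week set, 14 values of named receptors stood apart from the other 5 libraries by Dixon's criterion at the 95% level (gap over range above 0.625), of 82 groups examined. Chance gives about 5% of groups where these are independent and normally distributed. Here the same libraries recur over many receptors, some of them near the floor, so the number flagged cannot be read against that share. Of these, 8 were high values in iRhom2-/- library 10, which were 6.32 CPM for Olfr544 (others 1.09 to 2.90), 1.26 for Olfr554 (others 0.441 to 0.656), 5.16 for Olfr610 (others 1.12 to 2.49), 2.00 for Olfr616 (others 0.339 to 0.932), 0.808 for Olfr641 (others 0.0339 to 0.311), 2.39 for Olfr661 (others 0.449 to 1.04), 3.23 for Olfr683 (others 0.713 to 1.31) and 3.65 for Olfr685 (others 1.71 to 2.15). The same library had the highest class I share of OR counts of its set, 12.5%, and the highest Nqo1 level, 257 CPM, and the part of either was not tested.

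The other 6 were in WT libraries. Library 10 was high for Olfr543 (0.374 CPM, others 0.127 to 0.208) and Olfr689 (1.50 CPM, others 0.644 to 0.950), library 11 for Olfr588-ps1 (0.475 CPM, others 0.0340 to 0.169) and Olfr619 (0.507 CPM, others 0.0680 to 0.208), and library 9 for Olfr603 (0.0811 CPM, others 0, from 3 counts). Library 7 was low for Olfr549 (1.63 CPM, others 2.58 to 3.07). The age of these mice is not tied to their columns, so the part of age in these values was not tested.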

How the results depend on the processing

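Over 3 sets the 5 calls became 0 when every library had to hold at least 10 counts, since none of the 5 receptors then entered, and 3 at an adjusted p under 0.05, with only the 12 mice of 8 and 10 weeks, with sex as a term in those mice, or, as chosen after seeing the data, without iRhom2-/- libraries 10 and 12, which had at most 5 counts of Trim12a. Leaving out 1 library gave 3 to 5. In the 11 other settings that gave it a value, Olfr568 lost its call in 4 and Olfr587-ps1 in 5, and Olfr603, Olfr585 and Olfr543 in 0. At 8 weeks the 4 calls became 9 with DESeq2, 1 with at least 10 counts in every library, and 2 at an adjusted p under 0.05, in one fit over 24 libraries or with sex as a term, and leaving out 1 mouse gave 0 to 7. At 10 weeks DESeq2 called 2 where edgeR called 0, and leaving out 1 mouse gave 0 throughout, as in the 5- and 30-week set. A likelihood ratio test called 1 receptor for a change among sets, against 0. Between 8 and 10 weeks leaving out 1 mouse gave 6 to 22 calls. With the replicate number as a block, 10 were called at 8 weeks, 0 at 10 weeks and 4 over 3 sets, where Olfr587-ps1 was lost. The share of all genes called was not taken under any of these alternative settings, so their counts stand without a background. The numbers are not shown to pair the mice (correlations of same-numbered mice 0.14, 0.05 and 0.00 at 8 weeks and 0.00, 0.26 and 0.21 at 10 weeks). Without 1 library the difference in class I share ran from -0.13 to 4.11 points at 8 weeks, from -2.87 to -1.29 at 10 weeks and from -0.88 to 0.83 at 5 and 30 weeks, where it was -0.01 without WT library 7 and -0.08 without iRhom2-/- library 11, and it was -0.81 without iRhom2-/- libraries 10 and 12. A value counted as kept if its direction and side of the threshold held, or if a mean CPM per kb stayed within its SD. Of 895 values for single receptors, 777 were kept, 110 lost a call, 6 gained one and 2 turned, both for Olfr611 at 8 weeks (0.13 with sex as a term and 0.13 without WT mouse 3). Olfr611 ran from -1.17 to 0.13 there with 1 mouse left out. The causes were not tested. Most called receptors had under 100 counts in a library, and in WT libraries a difference below the 3-count floor could not be detected.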
